A study of Mus musculus with 4 samples.

Results

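Eosinophil genes and basophil or mast cell genes were followed in CD11b+ cells from the spleens of mice under repeated social threat (labelled HighThreat) and of control mice (LowThreat). The members were 10 genes: the eosinophil genes Epx, Prg2, Siglecf and Alox15, and the basophil or mast cell genes Mcpt8, Cpa3, Hdc, Prss34, Cd200r3 and Gata2. All probe sets with 1 of these gene symbols in the platform annotation were taken, which gave 12 of 45037 probe sets and 9 of the 10 genes. Prss34, a serine protease known in mouse basophils, had no probe set of its own and no value. Each of 4 Affymetrix MOE430 2.0 arrays held pooled RNA of 5 mice, with 2 pools per group. The labels give no strain, sex, age, genotype, duration or batch, and both groups were isolated the same way, as CD11b+ cells, from spleen.

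Eosinophils, basophils and mast cells are granulocytes of allergic and anti-parasite responses and form minor populations of the spleen. Eosinophils mature under interleukin 5 and store peroxidase and major basic protein in their granules. Basophils and mast cells carry the IgE receptor, store histamine and release proteases, and GATA transcription factors act in the development of all these cells. CD11b, the integrin chain encoded by Itgam, is carried by eosinophils and basophils but also by neutrophils, monocytes and macrophages.

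Siglecf and Alox15 fell under social threat and Mcpt8 rose, each by less than 1.5-fold, while the other 6 measured genes were not called. Of the 12 probe sets, 1 was higher and 2 were lower at an adjusted p under 0.05 (limma, Benjamini-Hochberg over all 45037 probe sets). Over all probe sets 7.09% were higher and 8.67% lower, 15.8% in all, so the count among these genes does not set them apart from the array. The 2 social threat pools lay above both control pools for 4 of the 12 probe sets and below both for 3, beside 24.1% and 28.6% of all probe sets. The median log2 difference of the 12 probe sets was -0.003, beside -0.0115 over all probe sets. Levels below are log2 expression made with RMA, and differences are social threat minus control on that log2 scale, with the standard error (SE) or a 95% interval from limma. Array medians ran from 4.41 to 4.43. The values come without detection calls, so a level near or below these medians could be background.

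Across probe sets Pearson's r was at least 0.9966 within a group and 0.9894 to 0.9904 between groups. Itgam, the antigen of the isolation, read 10.47 and 11.01 in control and 11.64 and 11.59 in social threat pools, a rise of 0.88 (SE 0.13, limma adjusted p = 0.0015). In bulk RNA, fewer cells of a type and less RNA per cell cannot be told apart.

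**Figure D1:**
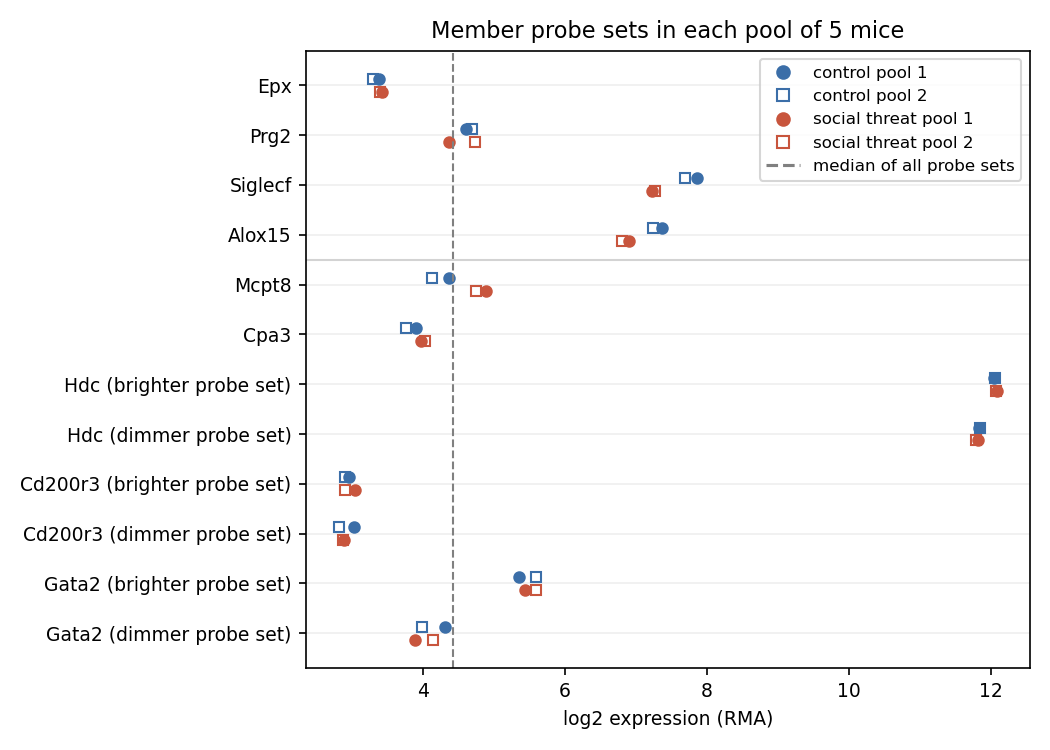
Log2 expression (RMA, horizontal axis) of the 12 member probe sets in each pool of 5 mice, eosinophil genes above the line and basophil or mast cell genes under it; the dashed line is the median of all probe sets. Siglecf and Alox15 are lower in both social threat pools, Mcpt8 is higher in both, and both Hdc probe sets lie near 12 in every pool.

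Among the eosinophil members, the granule protein genes Epx and Prg2 did not pass the test. Epx encodes eosinophil peroxidase. It stood at 3.39 and 3.30 in the control pools and at 3.42 and 3.39 in the social threat pools, all below the array median. Its difference was 0.07 with a 95% interval of -0.16 to 0.29 (limma adjusted p = 0.759). Prg2, the major basic protein of eosinophil granules, read 4.61 and 4.70 in control and 4.36 and 4.74 in social threat pools. These levels were near the array median. The social threat pools lay on both sides of the control pools, and the difference was -0.10 (95% interval -0.44 to 0.23, limma adjusted p = 0.74).

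Siglecf encodes an inhibitory sialic acid receptor of the eosinophil surface that is also known on mouse alveolar macrophages. Its level was 7.87 and 7.69 in the control pools and 7.23 and 7.27 in the social threat pools. Both social threat pools lay below both control pools, by at least 0.42. The gene fell by 0.53 (SE 0.09) on the log2 scale, a 1.44-fold difference (limma adjusted p = 0.00364). Alox15 encodes the 12/15-lipoxygenase, which oxidises polyunsaturated fatty acids in eosinophils and in resident peritoneal macrophages of the mouse. It stood at 7.37 and 7.25 in control pools and at 6.90 and 6.81 in social threat pools. The groups were separated by at least 0.35, and the gene fell by 0.46 (SE 0.10), a 1.37-fold difference (limma adjusted p = 0.00964). With the first or the second social threat pool left out, the adjusted p was 0.0726 or 0.0549 for Siglecf and 0.0839 or 0.158 for Alox15.

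Macrophage markers moved in the same pools. Of 5 red pulp macrophage genes, 4 fell (Vcam1, Hmox1, Adgre1 and Spic) and Cd5l rose. Of all genes, read by their brightest probe set, 11.7% fell and 9.4% rose. These shares stand beside this list and every cell type list below. The log2 of the summed linear levels of the 5 red pulp genes was 12.74 in both control pools. It was 12.50 and 12.53 in the social threat pools. Of 4 genes listed for peritoneal macrophages, Timd4 fell by 0.63 (SE 0.09) and Selp, also a platelet gene, rose by 0.54 (SE 0.10), with a summed level of 8.59 to 8.61 in control and 8.52 to 8.56 in social threat pools. Of that list 1 gene was called without social threat pool 2. Gata6, which defines peritoneal macrophages, stood at 4.91 and 4.92 in control pools and was not called (limma adjusted p = 0.929). The part of macrophages in the Siglecf and Alox15 differences was not tested.

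Beyond these members, 7 further eosinophil genes were listed. Ear1, Ear2, Ear6 and Ear10, eosinophil-associated ribonucleases, had no probe set of a single symbol. Of the 3 measured genes, 2 fell, beside 11.7% of 18193 genes that fell when each is read by its brightest probe set. With the first or the second social threat pool left out, 1 of the 3 was called. Ccr3, the eotaxin receptor that guides eosinophils into tissue, stood at 7.98 and 8.11 in control pools and at 7.002 and 7.122 in social threat pools, and fell by 0.98 (SE 0.09). Prg3, a second major basic protein gene, read 6.43 and 6.21 against 5.73 and 5.67 and fell by 0.62 (SE 0.12, limma adjusted p = 0.00606). Il5ra, the interleukin 5 receptor chain that eosinophils depend on, read 4.50 and 4.22 against 3.95 and 4.08, near the array median. Its difference of -0.35 (SE 0.14) did not pass the test (limma adjusted p = 0.139). The summed level of Ccr3, Prg3 and Il5ra was 8.50 to 8.52 in control and 7.62 to 7.70 in social threat pools. That of the 4 eosinophil members was 8.62 to 8.76 in control and 8.23 to 8.25 in social threat pools. Being sums of linear values, both are set mostly by their brightest genes. Those were Ccr3 in the further list and Siglecf and Alox15 among the members. The members Epx and Prg2, far dimmer, were not called.

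**Figure D2:**
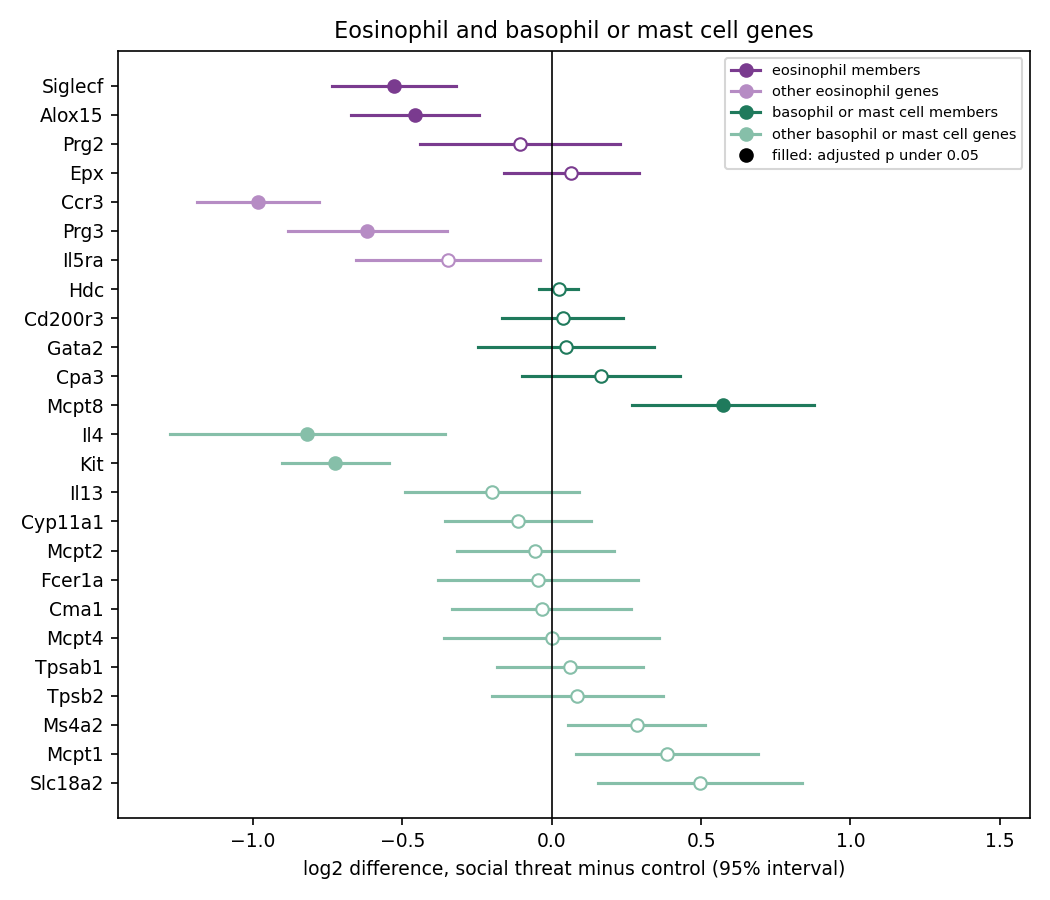
Log2 difference (social threat minus control, horizontal axis) with its 95% interval for each measured eosinophil and basophil or mast cell gene, read by its brightest probe set; filled points have a limma adjusted p under 0.05. Ccr3, Prg3, Siglecf and Alox15 lie left of 0, Mcpt8 is the one filled point on the right, and Kit and Il4 lie to the left among the mast cell and basophil genes.

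Of the basophil or mast cell members, the protease gene Mcpt8 rose and the others were not called. Mcpt8 encodes mast cell protease 8, which in the mouse is a marker of basophils. It stood at 4.37 and 4.12 in control pools and at 4.89 and 4.75 in social threat pools. Both social threat pools were above both control pools, by at least 0.38. The rise was 0.57 (SE 0.14, 95% interval 0.27 to 0.88), a 1.49-fold difference (limma adjusted p = 0.0181). The control pools lay below the array median, and background could set the starting point of the rise. Without control pool 2 the adjusted p was 0.0625, and without the first or the second social threat pool it was 0.172 or 0.0799.

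Cpa3, carboxypeptidase A3 of mast cell and basophil granules, read 3.91 and 3.76 in control and 3.97 and 4.03 in social threat pools. All pools were below the array median, and the difference of 0.17 (95% interval -0.10 to 0.43) did not pass the test (limma adjusted p = 0.444). Cd200r3, an activating receptor of basophils and mast cells, was read by 2 probe sets between 2.82 and 3.04 in every pool. Their differences were 0.04 and -0.04, with overlapping groups, and neither was called (limma adjusted p = 0.86 and 0.838).

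Hdc encodes histidine decarboxylase, the enzyme that makes histamine, and is also known to be expressed by immature myeloid cells of the mouse. Its brighter probe set stood at 12.05 and 12.06 in control pools and at 12.09 and 12.07 in social threat pools. The second probe set read 11.84 and 11.85 in control and 11.83 and 11.80 in social threat pools. The differences were 0.02 (95% interval -0.04 to 0.09) and -0.03 (-0.10 to 0.04), with opposite signs. Neither was called (limma adjusted p = 0.687 and 0.624). These intervals leave room for a difference of at most 0.10 in either direction, but they rest on the variance trend. Without the trend the limma adjusted p was 0.893 and 0.86. Unlike Mcpt8, Cpa3 and Cd200r3, Hdc was read far above the array median in every pool.

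Gata2, a transcription factor of blood progenitors, mast cells and basophils, was read by 2 probe sets. The first stood at 5.35 and 5.59 in control and at 5.45 and 5.59 in social threat pools, a difference of 0.05 (95% interval -0.25 to 0.34). The second read 4.32 and 4.00 against 3.89 and 4.14, all below the array median. Its difference was -0.14 (95% interval -0.48 to 0.19). The groups overlapped on both, and the adjusted p was 0.877 and 0.636 (limma).

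Of 15 further basophil or mast cell genes, Il1rl1 and Mrgprb2 had no probe set of a single symbol. Among the 13 measured, 2 fell and 0 rose, beside 11.7% and 9.4% of all genes, and 1 was called without the variance trend or without social threat pool 1. Kit, the stem cell factor receptor of mast cells and progenitors, fell by 0.72 (SE 0.08) on its brighter probe set, from 8.14 and 8.08 to 7.38 and 7.39. Of its 2 probe sets, 1 was called. Of 4 listed stem and progenitor genes, Flt3 fell by 1.12 (SE 0.10) and Meis1 by 0.49 (SE 0.13, with 1 of 3 probe sets called). Myb rose by 1.04 (SE 0.07) and Cd34 was not called. The summed level of these 4 genes was 9.10 to 9.18 in control and 9.11 to 9.19 in social threat pools. This sum joins the opposite changes of Flt3 and Myb, so it cannot show whether progenitors changed. The part of progenitors in the Kit difference was not tested. Il4, a cytokine gene of basophils and T cells, fell by 0.82 (SE 0.20), from 4.78 and 4.27 to 3.45 and 3.97, levels that include background. T cell genes fell for 3 of 3 in the same pools, with summed levels of 9.39 to 9.44 in control and 8.46 to 8.48 in social threat pools. The part of T cells in the Il4 difference was not tested.

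Other genes that mark basophils and mast cells stood near or below the array median. Fcer1a, the alpha chain of the IgE receptor, lay between 2.75 and 3.25 in the 4 pools and was not called (limma adjusted p = 0.896). Ms4a2, the beta chain of that receptor, read 3.32 and 3.24 in control and 3.52 and 3.60 in social threat pools, with a difference of 0.28 (SE 0.10, limma adjusted p = 0.102). Slc18a2, the vesicular transporter that loads histamine, read 4.26 and 3.88 against 4.66 and 4.48, with a difference of 0.50 (SE 0.15, limma adjusted p = 0.0562). On Ms4a2 and Slc18a2 the social threat pools lay above the control pools, as they did for 24.1% of all probe sets. The mast cell chymase genes Cma1 and Mcpt4 had differences of -0.03 and 0.00, with adjusted p of 0.918 and 0.999 (limma). Fcer1a and Ms4a2 were chosen after their values were seen.

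**Figure D3:**
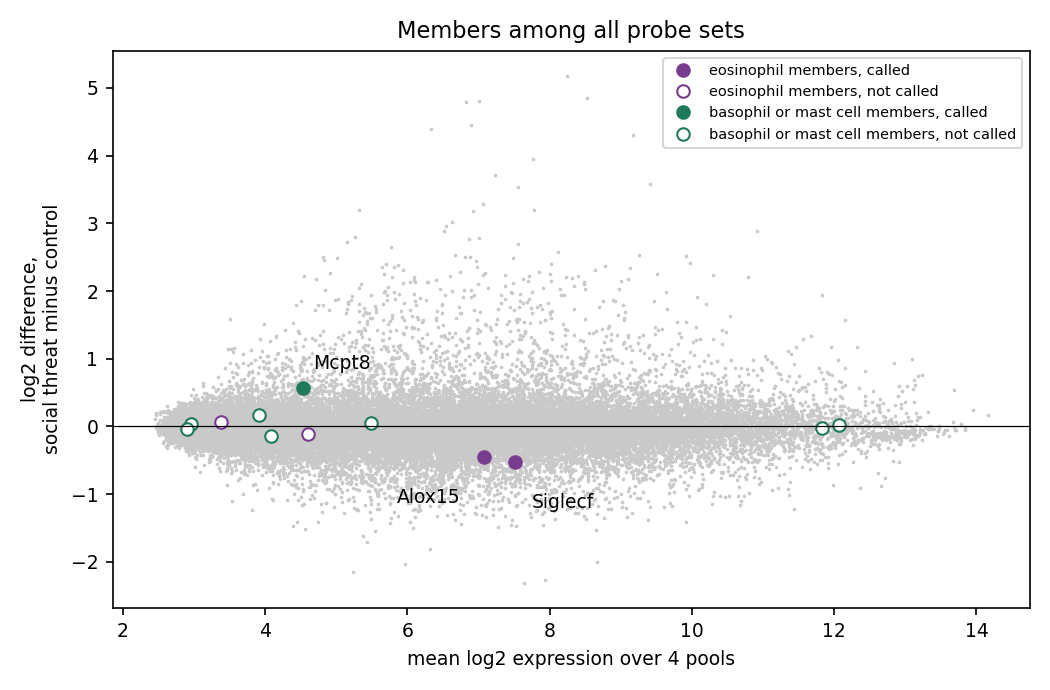
Log2 difference (social threat minus control, vertical axis) against mean log2 expression over the 4 pools (horizontal axis) for all 45037 probe sets in grey, with the 12 member probe sets in colour; filled points have a limma adjusted p under 0.05. Apart from Siglecf, Alox15 and Mcpt8 the member probe sets lie close to 0, between -0.14 and 0.17.

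Several members sit on the chromosome beside a related gene, and some of these relatives were compared, chosen after their values had been seen. Others are not shown in detail. Cpb1, a carboxypeptidase gene next to Cpa3, fell by 0.86 (SE 0.12), from a mean of 4.27 in control to 3.41 in social threat pools. Both means were below the array median and could be background. Gzme, Gzmd and Gzmg on the Ctsg side of Mcpt8 were not called. Nor were Prss28, Prss29, Tpsb2 and Tpsg1 near Prss34. Gene order was taken from RefSeq (GRCm38.p6), counting the 4 nearest protein-coding genes on each side of each member. Of 80 such neighbours, 68 were measured, of which 12 rose and 11 fell, beside 9.4% and 11.7% of all genes.

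Epx lies in a peroxidase cluster with Mpo and Lpo. Mpo, the peroxidase of neutrophil granules, stood at 6.23 and 5.97 in control and at 11.02 and 10.89 in social threat pools, a rise of 4.85 (SE 0.09). Epx differed by 0.07 and Lpo, lactoperoxidase, by 0.03 (SE 0.12) in the same pools, both below the array median. Neither Epx nor Lpo was called (limma adjusted p = 0.759 and 0.911), and the difference between neighbours was not tested here or for the pairs that follow.

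Mcpt8 lies in the chymase locus next to Ctsg. Ctsg, cathepsin G of neutrophil granules, stood at 4.55 and 4.65 in control and at 9.49 and 9.34 in social threat pools, a rise of 4.81 (SE 0.10). The 0.57 rise of Mcpt8 was in the same direction. On the other side Mcpt4 differed by 0.00 (SE 0.16), Mcpt2 by -0.05 (SE 0.12) and Mcpt1, a protease of mucosal mast cells, by 0.39 (SE 0.13), none called (limma adjusted p = 0.999, 0.837 and 0.092). All 5 listed genes of azurophil granule precursors rose, with summed levels of 8.80 to 8.99 in control and 13.0 to 13.08 in social threat pools. The part of these cells in the Mcpt8 difference was not tested.

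Near Siglecf, Alox15 and Cd200r3, 3 of 5 measured relatives were called, in both directions. Of all genes, 9.4% were called higher and 11.7% lower. Siglecg, an inhibitory receptor of B cells beside Siglecf, stood at 8.10 and 7.96 in control and 7.13 and 7.15 in social threat pools and fell by 0.89 (SE 0.09). Both measured B cell genes, Ms4a1 and Cd79a, fell in the same pools, with summed levels of 10.79 to 10.88 in control and 9.77 to 9.85 in social threat pools. Alox12, the platelet lipoxygenase near Alox15, rose by 0.48 (SE 0.13), from 5.44 and 5.13 to 5.75 and 5.78, with 1 of its 2 probe sets called. Alox12e, an epidermal lipoxygenase gene between them, had a difference of -0.21 (SE 0.17) and was not called (limma adjusted p = 0.493). All 5 platelet genes rose in those pools, or 3 of 5 with the first or the second social threat pool left out, with summed levels of 8.96 to 9.04 in control and 9.85 to 9.88 in social threat pools. The part of B cells and platelets in these differences was not tested. Cd200r1, the inhibitory CD200 receptor of myeloid cells, stood at 5.46 and 5.75 in control and at 7.31 and 7.11 in social threat pools, a rise of 1.61 (SE 0.13), while Cd200r3 stayed between 2.82 and 3.04. Cd200r4, another receptor gene of this family, had a difference of 0.30 (SE 0.12) and was not called (limma adjusted p = 0.158).

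**Figure D4:**
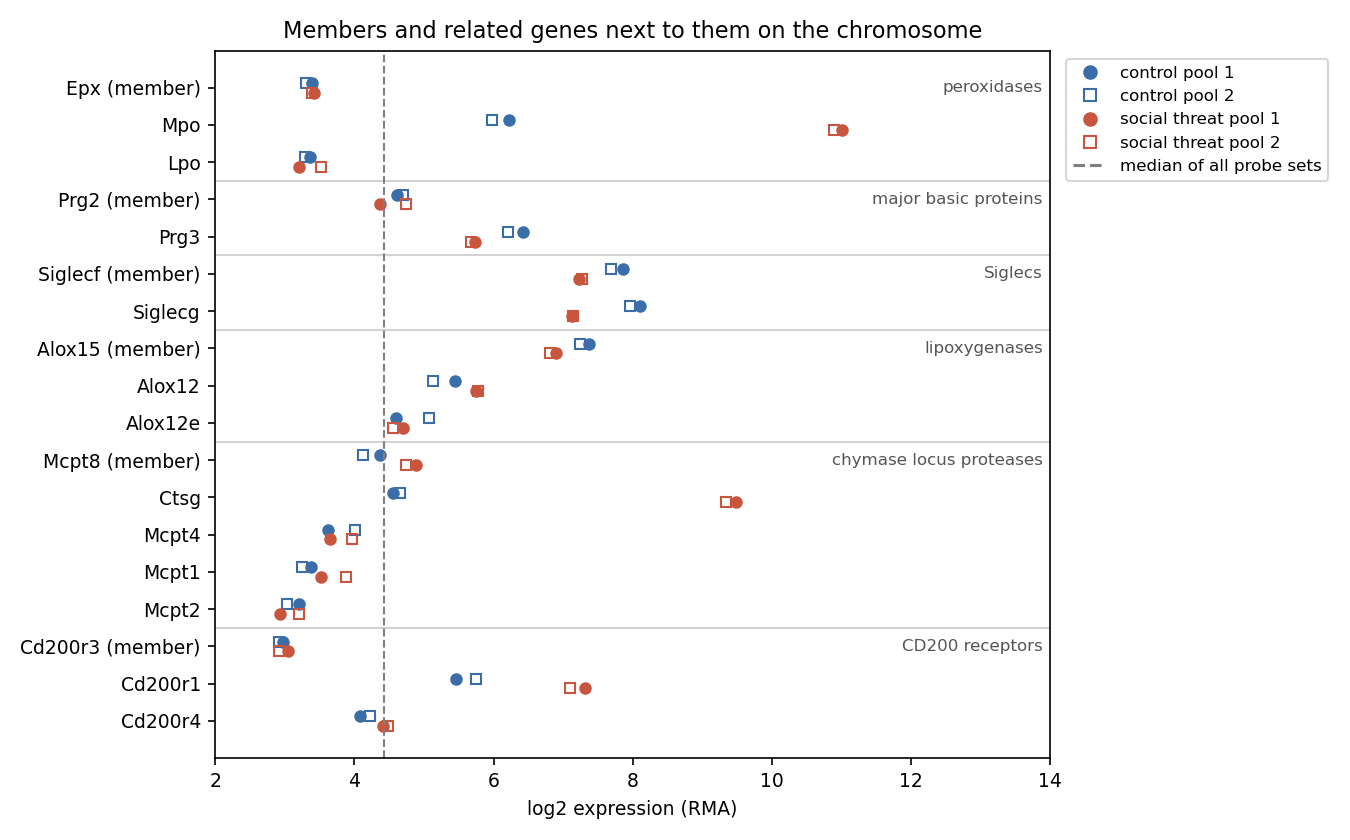
Log2 expression (RMA, horizontal axis) in each pool for 6 members and related genes near them on the chromosome, grouped by family; the dashed line is the median of all probe sets. Mpo, Ctsg and Cd200r1 are far higher in the social threat pools, while Epx and Cd200r3 remain below the dashed line in every pool.

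Promoter sequences are shown for members with different outcomes: Siglecf, which fell, Mcpt8, which rose, and Hdc and Cd200r3, which were not called. Each window runs from 250 bases before to 50 bases after the gene's start (RefSeq, GRCm38.p6), and capitals mark matches to the GATA motif, searched as AGATAA or AGATAG and as TGATAA or TGATAG on both strands. The windows are chr7:43351091-43351390 (plus strand) for Siglecf, chr14:56085148-56085447 (minus strand) for Mcpt8, chr2:126618629-126618928 (minus strand) for Hdc and chr16:44943428-44943727 (plus strand) for Cd200r3.
Siglecf: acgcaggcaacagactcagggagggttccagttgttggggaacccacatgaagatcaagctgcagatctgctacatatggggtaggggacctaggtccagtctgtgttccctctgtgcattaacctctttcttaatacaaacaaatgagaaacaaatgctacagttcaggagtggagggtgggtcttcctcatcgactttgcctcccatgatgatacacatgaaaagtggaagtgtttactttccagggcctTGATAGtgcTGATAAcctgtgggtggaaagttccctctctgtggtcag
Mcpt8: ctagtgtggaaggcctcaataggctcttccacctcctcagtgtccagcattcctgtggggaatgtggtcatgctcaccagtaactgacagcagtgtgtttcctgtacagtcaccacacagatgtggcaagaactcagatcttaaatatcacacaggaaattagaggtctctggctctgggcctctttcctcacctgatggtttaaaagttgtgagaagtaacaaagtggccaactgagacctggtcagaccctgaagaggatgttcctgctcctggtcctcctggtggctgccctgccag
Hdc: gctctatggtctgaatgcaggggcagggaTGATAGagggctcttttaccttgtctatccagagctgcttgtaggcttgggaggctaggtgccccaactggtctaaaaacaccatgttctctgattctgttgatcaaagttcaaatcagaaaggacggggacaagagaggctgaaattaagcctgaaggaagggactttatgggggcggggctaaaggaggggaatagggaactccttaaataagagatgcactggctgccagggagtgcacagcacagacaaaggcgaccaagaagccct
Cd200r3: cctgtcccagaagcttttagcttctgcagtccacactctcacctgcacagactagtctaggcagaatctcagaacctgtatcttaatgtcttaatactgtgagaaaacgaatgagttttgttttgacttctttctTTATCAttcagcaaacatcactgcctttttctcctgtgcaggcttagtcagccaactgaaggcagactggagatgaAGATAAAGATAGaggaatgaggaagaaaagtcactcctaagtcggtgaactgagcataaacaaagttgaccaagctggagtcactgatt

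RefSeq windows were matched for 8 of the 10 members, all but Prg2 and Alox15, with 9 windows in all, since Gata2 has 2. A GATA match was present in 5 of the 9 windows (Siglecf, Cpa3, Hdc, Prss34 and Cd200r3), beside 29.8% of 32851 promoter windows of the same length. Siglecf held 2 matches, both after the annotated start, and Cd200r3 held 3, which do not overlap. The windows of Mcpt8 and Epx and both of Gata2 held none of these letters. A C/EBP motif, searched as TTGCNNAA on both strands, was present in 1 of the 9 windows (Cd200r3) and in 10.8% of all windows. A match is a description of these letters only.

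The factors that grow and attract these cells were mostly not called. Of 9 ligand genes, Ccl24, eotaxin 2, fell by 0.91 (SE 0.11), from 6.38 and 6.37 to 5.39 and 5.53, and the other 8 were not called. Il5, Il3, Csf2, Il33, Tslp, Il25 and Ccl11 stood below the array median in every pool. Of 8 receptor chains and signalling genes, 2 rose and 2 fell, beside 9.4% and 11.7% of all genes. The 4 calls dropped to 1 without the variance trend and to 2 with the first or the second social threat pool left out. Csf2rb, the beta chain shared by the receptors for interleukin 3, interleukin 5 and GM-CSF, rose by 0.24 (SE 0.04), and Csf2rb2, the mouse interleukin 3 receptor beta chain, by 0.59 (SE 0.08). The signalling genes Jak2 and Stat5a fell by 0.29 (SE 0.06) and 0.37 (SE 0.09).

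Of 12 measured lineage transcription factors, 3 rose and 3 fell, beside 9.4% and 11.7% of all genes. Irf8, a factor of monocytes, dendritic cells and basophil progenitors, fell by 0.78 (SE 0.06), and Trib1, a regulator of C/EBP alpha needed for eosinophil development in the mouse, by 0.38 (SE 0.05) with 1 of 2 probe sets called. Id2 rose by 0.47 (SE 0.05) and Tal1, a factor of erythroid, megakaryocyte and mast cells, by 0.83 (SE 0.12). Erythroid genes rose for 5 of 6, with summed levels of 8.20 to 8.24 in control and 10.19 to 10.29 in social threat pools, and their part in the Tal1 difference was not tested. Gata1, chosen after its values were seen, read 5.08 and 5.09 in control and 5.28 and 5.31 in social threat pools and was not called (limma adjusted p = 0.307). Cebpe had no probe set of a single symbol.

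Genes of histamine and lipid mediators, the pathways of Hdc and Alox15, moved in both directions, with 4 rises and 1 fall among 11, beside 9.4% and 11.7% of all genes. The 5 calls dropped to 3 without the variance trend and to 3 with the first or the second social threat pool left out. Ltc4s, the leukotriene C4 synthase of eosinophils, basophils, mast cells and macrophages, stood at 6.48 and 6.42 in control and at 5.17 and 5.20 in social threat pools, and fell by 1.27 (SE 0.11, limma adjusted p = 4.92e-05). Alox5, the 5-lipoxygenase that starts leukotriene synthesis, rose by 0.85 (SE 0.05) and its activating protein Alox5ap by 0.33 (SE 0.03). Both are also known in neutrophils, whose 5 listed late granule genes all rose, with a summed level of 15.07 to 15.11 in control and 15.8 in both social threat pools, and the part of these cells was not tested. Hnmt, which degrades histamine, rose by 0.42 (SE 0.09). The histamine receptor genes Hrh1, Hrh2 and Hrh4 were not called (limma adjusted p = 0.154, 0.878 and 0.955).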

How the data were processed

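Per the submitters' processing notes, the authors made the deposited log2 expression values with RMA. Its version and the genome build are not given in the sources used here. The values were used as deposited. Scanner files were not used here. Of 45037 probe sets, 34945 had 1 gene symbol in the platform annotation, 932 had several and 9160 were unnamed. No probe set with several symbols held a member. Entrez identifiers of 34741 probe sets matched RefSeq, which changed 0 symbols.

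Social threat was compared with control in limma 3.58.1 (R 4.3.3; lmFit, eBayes with trend, 2 residual and 7.1 prior degrees of freedom), two-sided, with Benjamini-Hochberg adjustment over all probe sets and calls at an adjusted p under 0.05. With 2 pools per group an exact permutation test cannot give a two-sided p under 0.333. Intervals are moderated 95% intervals for one probe set at a time and are not adjusted. The labels do not say whether pools were prepared separately beyond pooling different mice. The p-values rest on the spread between pools, moderated by the variance trend over all probe sets. They do not measure the spread between single mice. The precision is limited by the 4 arrays. A batch in step with the groups cannot be told apart from them. Genes of further lists were read by their brightest probe set, which gave 18193 genes. Summed levels are the log2 of the sum of linear values over a list, so the brightest genes of a list weigh most.

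All members were named. The plan for each further list was up to 4 genes, called genes first by p and then the brightest. Several lists had more genes named than this. They include the ligand, red pulp macrophage, histamine and lipid mediator, and basophil or mast cell lists. The extra genes were not chosen by that rule. The members and lists were chosen with earlier results of these data known. The fit was tested on simulated data. Alternatives changed the variance model, normalization, filter, replicate block and pools.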

Additional observations from a re-analysis of the deposited data

How the results depend on the processing

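Siglecf and Alox15 kept their fall and Mcpt8 its rise in all 10 alternatives. Their calls were lost only where a pool was left out, and the lone pool of that group was then assumed to vary like the others. Over these 4 fits the number of members called higher ran from 0 to 1 and called lower from 0 to 2, and the calls over all probe sets ran from 3171 (without social threat pool 2) to 8721 (without control pool 2). The cause of the smaller counts was not tested. Without the variance trend 4689 probe sets were called over all, with the same 3 members among them.

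The differences of Prg2, Cd200r3 and Gata2, none of them called, changed sign when single pools were left out, and those of Epx, Cpa3 and Hdc kept theirs. They ran, for those that changed sign, from -0.293 to 0.083 for Prg2, from -0.028 to 0.101 and from -0.151 to 0.06 for the Cd200r3 probe sets, and from -0.072 to 0.168 and from -0.304 to 0.02 for those of Gata2. The cause was not tested.

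With a replicate block by pool number, 8168 probe sets were called over all, beside 7099 without it, and no member's call changed. The differences between the numbered pools of the 2 groups correlated at 0.05 across probe sets. The labels do not say whether pools of the same number shared a preparation. A correlation over all probe sets cannot decide that, since a shared step could act on some genes only. A test restricted to probe sets above the median left out 5 of the 12 member probe sets. Without detection calls, levels near or below the array median limit what can be said of Epx, Prg2, Cpa3, Cd200r3 and Mcpt8. The same holds for the dimmer Gata2 probe set.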
